A study of Rattus norvegicus with 9 samples.

Results

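Osteoclasts are the cells that resorb bone and calcified cartilage. The 10 genes described here are those of their differentiation and their resorption machinery, namely Ctsk, Acp5, Mmp9, Atp6v0d2, Ocstamp, Dcstamp, Nfatc1, Tnfrsf11a, Tnfsf11, and Tnfrsf11b. They were found by gene name among 32043 genes in a table of expression in rat knee cartilage, and each of the 10 names stood on 1 entry. The study asked how Shengyu decoction (SYD), an herbal extract, acts in knee osteoarthritis (KOA). Male Sprague–Dawley rats of 8 weeks were used, and the 3 groups had 3 libraries each. In the model group, KOA was induced by the modified Hulth method: the medial collateral and anterior cruciate ligaments of the left knee were excised and the medial meniscus was taken out, and the rats were then made to move. Rats of the control group had the joint capsule opened and closed with nothing removed. Rats of the SYD group were operated on like the model rats and were then given the extract by gavage for 4 weeks, and tissue was taken 8 weeks after surgery. The labels give no dose, and the study's text describes the sequenced treated rats as its highest dose, SYD-H, although its methods name only control and model rats for sequencing. The labels call these libraries SYD but give their library names as CXTB, which is not explained, and the study also had a positive control group named CXB. The labels were followed. It was not stated how many animals went into a library, so the p-values measure only the spread between these libraries, which may be technical.

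As background, osteoclasts form from precursors of the monocyte lineage. Osteoblasts, osteocytes, and other stromal cells make the ligand RANKL (Tnfsf11), which binds the receptor RANK (Tnfrsf11a) on precursors, while the secreted decoy receptor osteoprotegerin (Tnfrsf11b) binds RANKL and keeps it from the receptor. RANK signaling raises the transcription factor Nfatc1, which drives genes of cell fusion (Dcstamp, Ocstamp), of acid secretion (Atp6v0d2), and of matrix digestion (Ctsk, Acp5, Mmp9). In the joint, osteoclasts sit in the subchondral bone beneath the cartilage.

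Expression is given as FPKM, the fragments on a gene scaled by its length and by a library size that the authors had also scaled between libraries. The reads recovered from these values numbered 14914121 to 19510537 per library. Of these, 4.05% to 4.86% lay on mitochondrial genes in control, 39.5% to 90.7% in model, and 23.7% to 72.7% in SYD. This left 1744769 reads on other genes in model library 1 and 3611325 in model library 3 but 11106680 in model library 2. The label of cartilage was checked against 14 chondrocyte markers: Col2a1, the main collagen of cartilage, ranged from 39.0 to 8323 FPKM over the libraries, and Matn1, a cartilage matrix protein, was at 0 in every model and SYD library. Control library 2 stood apart from its group, with 348 FPKM of Col2a1 against 8323 and 4468 and the highest neutrophil and erythroid sums of the controls, and it was the lowest control library for all 10 members. The counts of calls against control are also given without it. In bulk tissue, fewer cells of a type and less RNA per cell cannot be told apart. Of the members, Ctsk and Acp5 were among the most abundant genes of the table, at rank 38 and rank 64 by mean FPKM over all 9 libraries. The SYD libraries added most to both means, and ranks were not taken by group.

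Promoter sequences are shown for the 2 most abundant members, whose levels moved together, and for the ligand Tnfsf11, whose levels followed theirs less closely. They are RefSeq sequences of the rat assembly GRCr8, from a promoter set that had entries for 4 of the 10 members (Acp5, Ctsk, Ocstamp, and Tnfsf11). Each runs from 250 bases before to 50 bases after the transcription start, in the direction of the gene. Capitals mark matches to short motifs of osteoclast transcription factors on either strand.
Ctsk, chr2:185747298-185747597, plus strand: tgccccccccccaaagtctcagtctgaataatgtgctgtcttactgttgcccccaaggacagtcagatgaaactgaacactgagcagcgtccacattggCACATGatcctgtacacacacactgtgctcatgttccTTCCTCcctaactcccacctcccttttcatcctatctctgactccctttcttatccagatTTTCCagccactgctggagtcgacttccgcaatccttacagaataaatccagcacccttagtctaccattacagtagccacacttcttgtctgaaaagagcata
Acp5, second of 2 start sites, chr8:28943880-28944179, minus strand: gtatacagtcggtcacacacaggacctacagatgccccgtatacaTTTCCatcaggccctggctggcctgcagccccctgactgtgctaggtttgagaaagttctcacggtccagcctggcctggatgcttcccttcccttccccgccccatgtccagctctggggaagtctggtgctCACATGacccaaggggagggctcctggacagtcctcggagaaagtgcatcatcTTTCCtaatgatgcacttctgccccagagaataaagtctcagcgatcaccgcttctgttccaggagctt
Tnfsf11, chr15:60114430-60114729, minus strand: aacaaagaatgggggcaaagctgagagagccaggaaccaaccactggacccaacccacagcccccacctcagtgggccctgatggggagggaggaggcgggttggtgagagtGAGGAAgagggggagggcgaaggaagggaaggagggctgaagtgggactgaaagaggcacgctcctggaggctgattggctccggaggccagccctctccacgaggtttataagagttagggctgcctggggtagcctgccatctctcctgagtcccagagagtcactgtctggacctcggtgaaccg

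Both Ctsk and Acp5 held CACATG, the E-box read by MITF, a factor of osteoclast and pigment cells, at -151 in Ctsk and -72 in Acp5 relative to the start. This motif (CACATG or its complement CATGTG) stood in 14.0% of all 33469 promoter windows of the same length. The core of NFAT sites (GGAAA or TTTCC) stood in 62.7% of windows and was found at -54 in Ctsk, at -205 and -19 in Acp5, and at -130 in Ocstamp. The core of PU.1 sites (GAGGAA or TTCCTC) stood in 27.6% of windows and was found at -114 in Ctsk and -138 in Tnfsf11. The AP-1 motif TGANTCA, which is its own complement and stood in 7.33% of windows, was found in none of the 4 genes, and the first start site of Acp5 held none of the 4 motifs. The motifs marked did not overlap. A match is a run of letters, not a shown binding site.

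Ctsk encodes cathepsin K, the protease with which osteoclasts digest bone collagen (ENSRNOG00000021155, chromosome 2, 183058569 to 183069550 in the authors' table, plus strand). It measured 346, 251, and 430 FPKM in the control libraries, 364, 1071, and 204 FPKM in the model libraries, and 1507, 1067, and 1186 FPKM in the SYD libraries. The SYD libraries lay above all control libraries, and model library 2 stood level with them, while model libraries 1 and 3 stood near the control range. Acp5, the tartrate-resistant acid phosphatase by which osteoclasts are stained (ENSRNOG00000046261, chromosome 8, 20663985 to 20667929, minus strand), measured 350, 186, and 346 FPKM in control, 177, 522, and 139 FPKM in model, and 691, 624, and 769 FPKM in SYD. The SYD libraries lay above every other library, and model library 2 was again the highest of its group.

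Mmp9, a gelatinase that osteoclasts and neutrophils secrete (ENSRNOG00000017539, chromosome 3, 153683858 to 153692120, plus strand), measured 308, 164, and 263 FPKM in control, 72.9, 143, and 99.4 FPKM in model, and 409, 269, and 202 FPKM in SYD. All model libraries lay below all others, and the control and SYD libraries overlapped. Atp6v0d2 encodes a subunit of the proton pump that acidifies the resorption pit (ENSRNOG00000006926, chromosome 5, 33336264 to 33385354, minus strand). Its levels were 15.1, 10.2, and 16.0 FPKM in control, 39.4, 39.6, and 7.41 FPKM in model, and 43.5, 30.4, and 33.6 FPKM in SYD. Model libraries 1 and 2 stood in the SYD range and model library 3 was the lowest of all 9.

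Dcstamp, a membrane protein needed for the fusion of precursors (ENSRNOG00000004704, chromosome 7, 70807581 to 70822078, plus strand), measured 4.29, 2.61, and 5.44 FPKM in control, 0, 9.99, and 1.10 FPKM in model, and 23.6, 11.0, and 13.0 FPKM in SYD. Its SYD libraries lay above all others. Ocstamp, its relative in fusion (ENSRNOG00000019110, chromosome 3, 154132328 to 154136991, minus strand), measured 1.75, 0.832, and 2.25 FPKM in control, 0, 2.90, and 0 FPKM in model, and 6.32, 4.78, and 0.997 FPKM in SYD. SYD library 3 fell into the control range, with 21 reads. Nfatc1, the transcription factor (ENSRNOG00000017146, chromosome 18, 74046904 to 74156028, minus strand), measured 8.30, 4.74, and 8.26 FPKM in control, 1.44, 6.88, and 2.76 FPKM in model, and 10.9, 9.51, and 9.46 FPKM in SYD, so that the SYD libraries lay above all others by a narrow margin over control.

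The receptor Tnfrsf11a (ENSRNOG00000015615, chromosome 13, 21928408 to 21986695, plus strand) measured 3.14, 2.36, and 2.60 FPKM in control, 0, 5.86, and 0 FPKM in model, and 10.8, 4.30, and 3.64 FPKM in SYD. The ligand Tnfsf11 (ENSRNOG00000071047, chromosome 15, 53673877 to 53705445, minus strand) measured 2.17, 0.719, and 2.16 FPKM in control, 14.7, 6.63, and 3.08 FPKM in model, and 19.3, 9.24, and 3.52 FPKM in SYD. Every model and every SYD library lay above the control libraries for the ligand, whereas for the receptor only the SYD group did. The decoy receptor Tnfrsf11b (ENSRNOG00000008336, chromosome 7, 85566520 to 85594538, minus strand) measured 6.33, 0.685, and 3.90 FPKM in control, 8.10, 2.99, and 0 FPKM in model, and 6.81, 4.84, and 3.36 FPKM in SYD, and its groups overlapped throughout.

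The zeros all fell in the 2 model libraries with the fewest non-mitochondrial reads. A count of 0 there still allows 3 reads, which is 0.304 FPKM for Tnfrsf11a in model library 1 and 0.166 FPKM in model library 3. For Ocstamp the limits were 0.451 and 0.247 FPKM in the same libraries, for Dcstamp 0.400 FPKM in model library 1, and for Tnfrsf11b 0.148 FPKM in model library 3. These limits lie below the lowest control value of the same gene and cover counting error only. In these libraries Ctsk still had 1898 and 1940 reads. Fitted fold changes of the genes with zeros depend on the 1 FPKM added before taking logarithms. With 0.01 FPKM added instead, the log2 fold change between model and control moved from -0.96 to -5.01 for Tnfrsf11a, from -0.69 to -4.50 for Ocstamp, and from -0.81 to -3.04 for Dcstamp, and none of these was called with either amount. Between SYD and model it moved from 1.80 to 6.05 for Tnfrsf11a, from 1.48 to 5.56 for Ocstamp, and from 2.50 to 4.97 for Dcstamp.

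**Figure D1:**
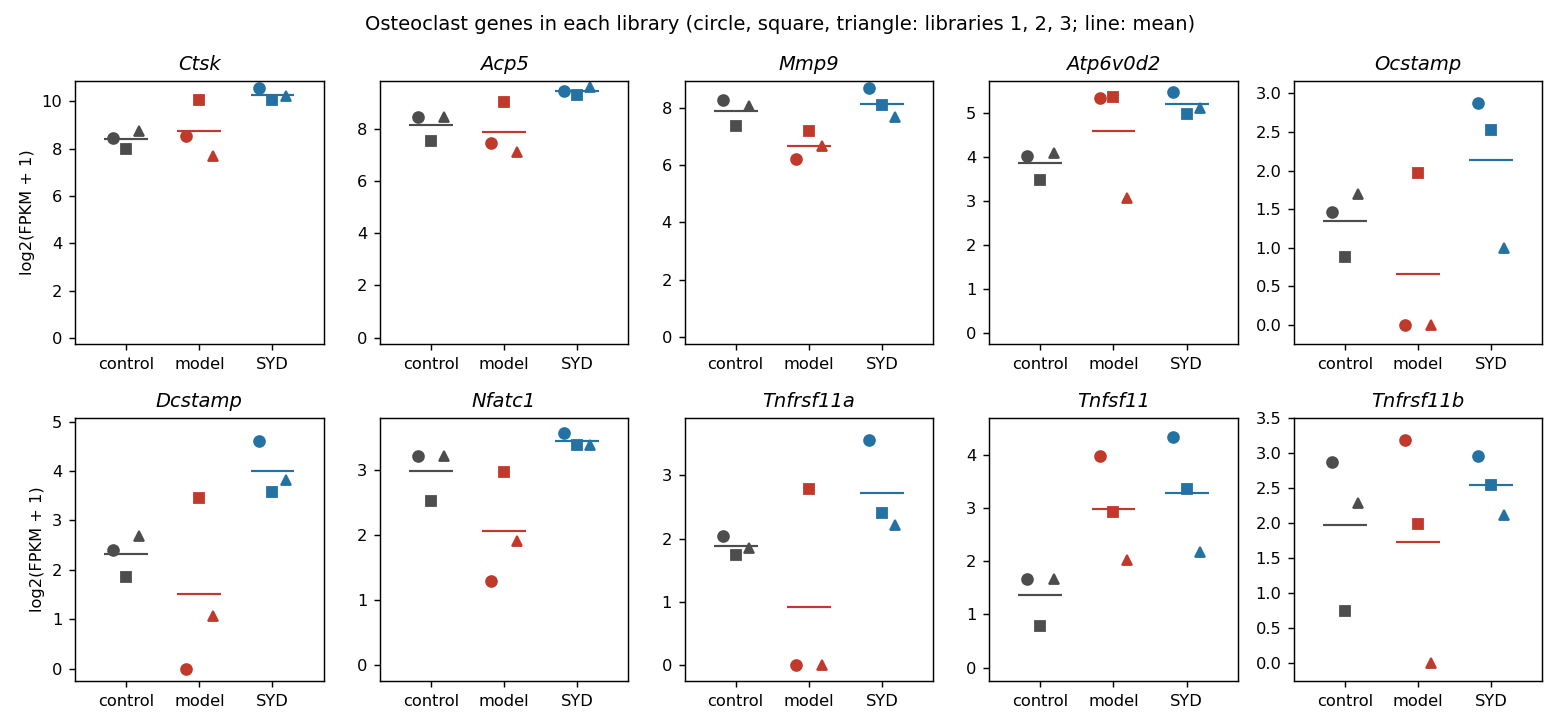
Level of each of the 10 genes as log2(FPKM + 1) in the 3 control, 3 model, and 3 SYD libraries (circle, square, and triangle for libraries 1, 2, and 3; line for the group mean). The square of the model group stands above both other model libraries for Ctsk, Acp5, Mmp9, Dcstamp, Ocstamp, Nfatc1, and Tnfrsf11a. For Atp6v0d2 it is level with model library 1 (39.6 and 39.4 FPKM). The zeros are in model libraries 1 and 3.

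By level within a library, Ctsk, Acp5, and Mmp9 held the first 3 places in all 9 libraries and Atp6v0d2 the 4th. The group means of Ctsk were 342 ± 89.8 FPKM in control, 546 ± 462 FPKM in model, and 1254 ± 228 FPKM in SYD (SD, n = 3 each). Those of Acp5 were 294 ± 93.5, 279 ± 211, and 695 ± 72.5 FPKM, and those of Mmp9 were 245 ± 73.5, 105 ± 35.3, and 294 ± 105 FPKM in the same order. The ranges of these 3 genes overlapped in the control group, and Ctsk lay above Acp5 and Acp5 above Mmp9 in all 9 libraries but control library 1, where Acp5 came first. The other 6 genes had group means of 0.965 to 15.9 FPKM and no fixed order.

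Between the model and control groups, which differ by the Hulth surgery together with the forced movement after it, the osteoclast genes did not move as a block. Mmp9 was lower in the model group, by 1.22 on the log2 scale (SE 0.38), and the ligand Tnfsf11 was higher, with a log2 fold change of 1.61 (SE 0.59). With TPM, which counts mitochondrial reads in the total, the value for Tnfsf11 was -0.78 and its call was lost, with the median of all genes at -2.60, and with TPM without mitochondrial genes it was 1.80 with an unadjusted p-value of 0.0656. On the deposited scale each separated all model from all control libraries, in directions in which 20% (lower) and 8.65% (higher) of all genes did so. A gene was called where it met the criteria of the study, which set an unadjusted p-value under 0.05 and a log2 fold change beyond 1 in either direction. Mmp9 and Tnfsf11 were the only members called, with unadjusted limma p-values of 0.0175 and 0.0329. Among all 13898 genes tested, 3.55% were called higher and 11.2% lower. After Benjamini-Hochberg adjustment over all genes tested, the adjusted p was 0.158 for Mmp9 and 0.212 for Tnfsf11, and none of the 10 members was under 0.05 (2.59% of all genes were).

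The remaining members gave small or uncertain differences between model and control. The log2 fold change of Ctsk was 0.36 (95% interval -1.23 to 1.95) and that of Acp5 was -0.27 (-1.69 to 1.14). For Nfatc1 it was -0.92 (-2.17 to 0.32) and for the receptor Tnfrsf11a -0.96 (-2.90 to 0.99). The median over the 10 members was -0.48, beside -0.23 over all genes tested. Single libraries decided these counts. Without model library 2 the called members were 5, all lower (Mmp9, Ocstamp, Dcstamp, Nfatc1, and Tnfrsf11a), where 18.4% of all genes were called lower. Without control library 1, control library 3, or model library 1 there were 0, without control library 2 there was 1, lower, and without model library 3 there were 2 higher and 1 lower. The shares of all genes called in these 5 fits were 1.92% to 7.14% higher and 7.43% to 12.3% lower.

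Between the SYD and model groups, the comparison that asks what the extract changed after surgery, all 10 members had a log2 fold change above 0, as did 61.9% of all genes tested. Acp5, Mmp9, Dcstamp, and Nfatc1 were called higher in SYD, 4 of the 10 members, where 3.62% of all genes were, and 0 members were called lower, where 0.532% of all genes were. These 4 genes also separated all SYD from all model libraries, which 7.89% of all genes did in this direction. The log2 fold change was 1.56 (SE 0.54) for Acp5, 1.47 (SE 0.39) for Mmp9, 2.50 (SE 0.90) for Dcstamp, and 1.39 (SE 0.50) for Nfatc1. Their unadjusted p-values in limma were 0.0256, 0.00821, 0.0293, and 0.0286. Ctsk, at 1.53 (SE 0.65, unadjusted p 0.0553), fell just short, and Tnfsf11, at 0.31 (95% interval -1.41 to 2.04), showed no separation. The median over the members was 1.47, beside 0.22 over all genes tested.

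None of these differences passed adjustment. The adjusted p-value was 0.723 for each of the 4 called members, and 0 of all genes had one under 0.05 in limma, while 731 genes (5.26%) had an unadjusted p-value under 0.05. A second fit with limma's voom on the recovered reads called 6 members higher, where it called 7.16% of all genes higher. Ctsk, Ocstamp, and Tnfrsf11a joined there, and Nfatc1 lost its call, with a log2 fold change of 0.85 (unadjusted p 0.117). Nfatc1 also lost its call with TPM (2.41, unadjusted p 0.0807). Dcstamp lost its call with 0.1 or 0.01 FPKM added (unadjusted p 0.0549 and 0.0898) and with no filter on low genes (unadjusted p 0.0512). The voom fit also gave 0 genes with an adjusted p-value under 0.05, with 1113 under 0.05 unadjusted. The count turned on single libraries here too. Without model library 2, which had the lowest mitochondrial share of its group at 39.5%, 7 members were called higher (Ctsk, Acp5, Mmp9, Ocstamp, Dcstamp, Nfatc1, and Tnfrsf11a), where 13.8% of all genes were. Leaving out any one of the other 5 libraries (model 1, model 3, or SYD 1, 2, or 3) left 1, Mmp9, with 2.07% to 3.32% of all genes called higher. The unadjusted p-value of Mmp9 over the 6 fits without 1 library was between 0.00632 and 0.0288.

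Between the SYD and control groups, 5 members were called higher and 0 lower on the deposited scale, although after rescaling to TPM none was called, where 0.921% of all genes were called higher and 42.5% lower, and 7 members had fold changes below 0, with the median of all genes at -1.31 and all 10 members above that median. The 5 log2 fold changes from limma were 1.89 for Ctsk (SE 0.32, adjusted p = 0.0185), 1.29 for Acp5 (SE 0.32, adjusted p = 0.0465), 1.33 for Atp6v0d2 (SE 0.22, adjusted p = 0.0179), 1.69 for Dcstamp (SE 0.35, adjusted p = 0.0288), and 1.92 for Tnfsf11 (SE 0.59, adjusted p = 0.0753). Of all genes tested, 7.25% were called higher and 9.22% lower, 7.75% were higher with an adjusted p-value under 0.05 (4 of the members were), and 49.8% had a fold change above 0 (all 10 members did). These 5 members, Nfatc1, and Tnfrsf11a separated all SYD from all control libraries, 7 of 10 members beside 20.3% of all genes. Mmp9, at 0.25 (95% interval -0.65 to 1.15), and the decoy receptor Tnfrsf11b, at 0.57 (-0.85 to 1.99), did not.

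Besides TPM, Acp5 lost its call with quantile normalization (log2 fold change 0.98) and Dcstamp with all 9 libraries in one fit (unadjusted p 0.0512). Leaving out 1 library at a time, Ctsk, Atp6v0d2, and Dcstamp kept their unadjusted calls in all 6 fits. Their adjusted p-values in limma stayed under 0.05 in fewer of them, in 3 of 6 for Ctsk, 3 for Atp6v0d2, and 2 for Dcstamp, and in 0 for Acp5. Acp5 lost its call without control library 2 (log2 fold change 0.99), and Tnfsf11 lost its call without control library 2 (unadjusted p 0.0600) or SYD library 2 (unadjusted p 0.0513). The number of members called higher was 3 without control library 2, 4 without SYD library 2, and 7 without SYD library 3, when Ocstamp and Tnfrsf11a joined, and the shares of all genes called higher in these fits were 5.23%, 7.35%, and 8.86%. The 3 comparisons share libraries, so their values stand side by side here and are not independent.

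**Figure D2:**
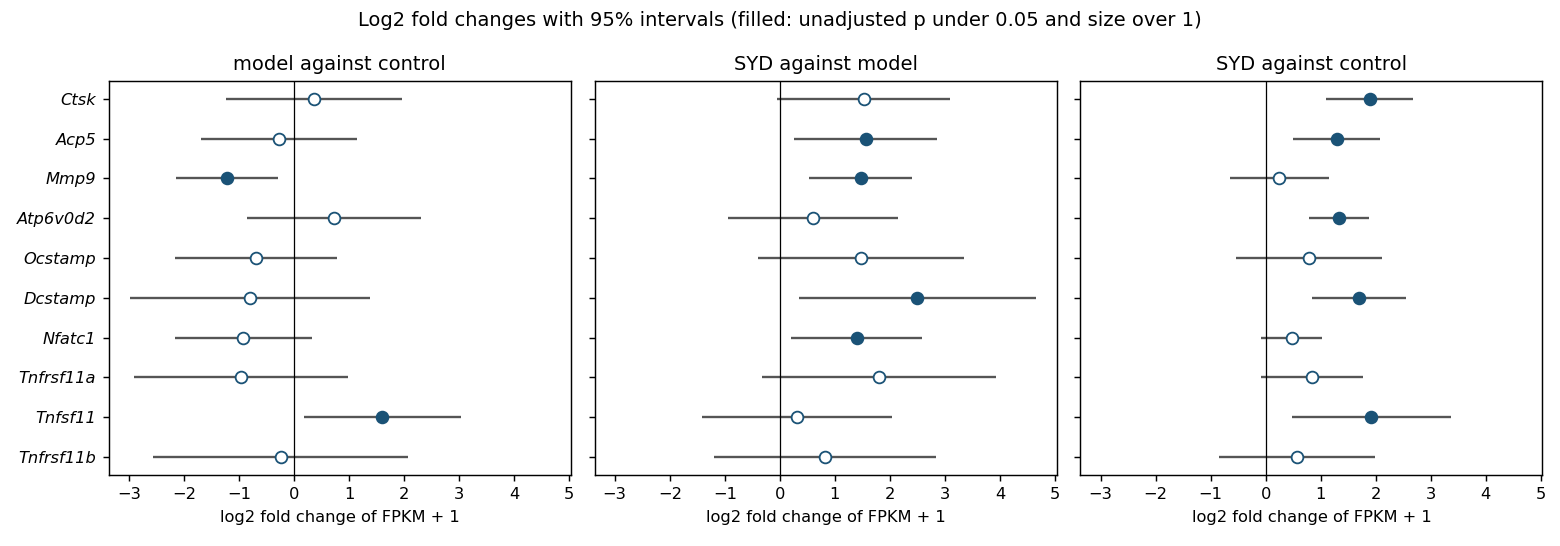
Log2 fold change of FPKM + 1 for the 10 genes in each comparison, with 95% intervals from limma; filled points passed the unadjusted criteria. For Dcstamp the interval is 0.34 to 4.65 in SYD against model and narrower, 0.83 to 2.55, in SYD against control. For Tnfsf11 it is not narrower there, at 0.48 to 3.36 beside 0.18 to 3.03 in model against control. With TPM 7 of the 10 fold changes of the last panel are below 0 while all 10 stay above the median of all genes (-1.31).

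The scale matters because mitochondrial reads differed so much. With TPM the median of all genes moved to -2.60 between model and control, 1.22 between SYD and model, and -1.31 between SYD and control, and between model and control 0 members were called higher and 7 lower, in place of 1 and 1, while 74.9% of all genes were called lower. Relative to the median of all genes, the place of the members was counted under 5 scalings (deposited FPKM, TPM, TPM without mitochondrial genes, quantile normalization, and voom). In SYD against control all 10 members lay above that median under the 5 scalings. In SYD against model all 10 did under 4 of them and 9 under TPM without mitochondrial genes. In model against control, 2 to 5 of the 10 lay above it.

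Ratios of members within a library do not depend on the library's scale. The ratio of Ctsk to Acp5 was 0.988 to 1.35 in control, 1.47 to 2.06 in model, and 1.54 to 2.18 in SYD. Every library of the Hulth operation lay above every control library in this ratio, whether treated or not. The ratio of Ctsk to Mmp9 was 1.12 to 1.64 in control, 2.05 to 7.50 in model, and 3.69 to 5.86 in SYD, with the same separation. Ctsk to Atp6v0d2 was 23.0 to 26.9 in control and 34.6 to 35.3 in SYD, and it was 9.25, 27.0, and 27.5 in model. Relative to each of these 3 genes, Ctsk was higher in every SYD library than in any control library. Ratios of Ctsk to the remaining members were not computed. The share of all genes whose ratio to Ctsk separates the groups was not computed either, so these separations have no background beside them. With 3 libraries against 3, the smallest p of an exact permutation test is 0.1, and none was run.

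The ligand and its decoy gave the ratio that is commonly read for osteoclast formation. Tnfsf11 to Tnfrsf11b was 0.344, 1.05, and 0.554 in control, 1.81 and 2.22 in model libraries 1 and 2, and 2.83, 1.91, and 1.05 in SYD. Model library 3 had no reads on Tnfrsf11b and gave no ratio. SYD library 3 and control library 2 met at 1.05, and the other model and SYD libraries lay above the control libraries. Control library 2 had 62 reads on Tnfsf11 and 77 on Tnfrsf11b, the fewest of its group.

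**Figure D3:**
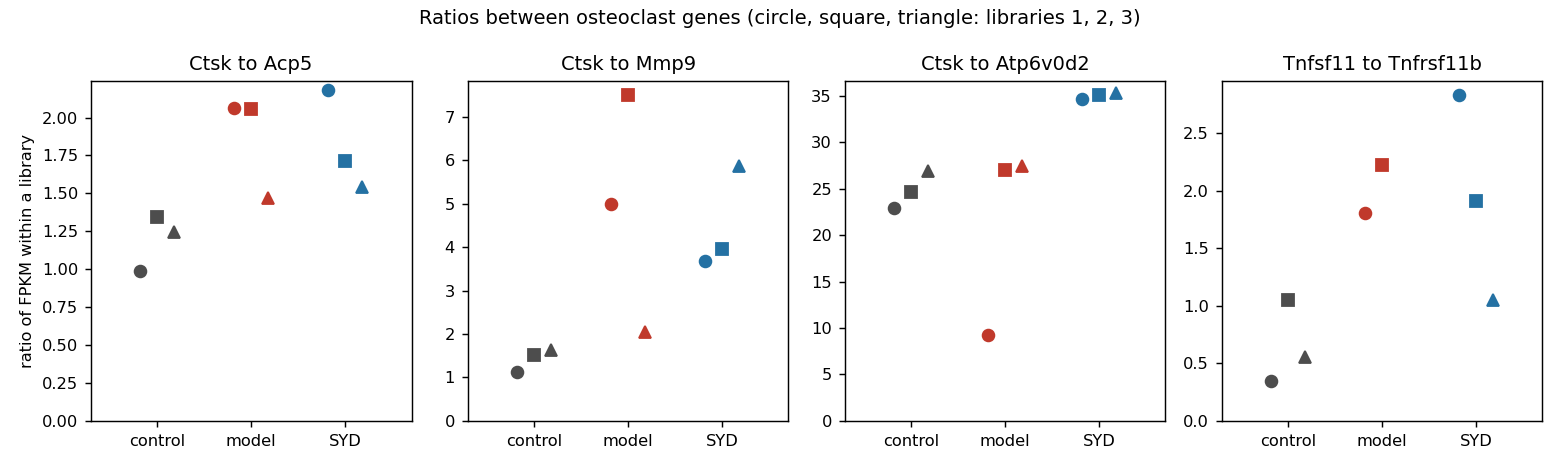
Ratio of FPKM between members within each library, by group (circle, square, and triangle for libraries 1, 2, and 3; linear axes from 0). Ctsk to Acp5 and Ctsk to Mmp9 separate the control libraries from all others, Ctsk to Atp6v0d2 is 34.6 to 35.3 in the SYD libraries, and model library 3 has no point for Tnfsf11 to Tnfrsf11b.

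The members varied together over the 9 libraries to differing degrees. Over their 45 pairs, Pearson's r of log2(FPKM + 1) ran from -0.03 to 0.94 with a median of 0.68. It was 0.94 for Ctsk with Acp5, for Dcstamp with Tnfrsf11a, and for Dcstamp with Nfatc1, and 0.92 for Nfatc1 with Mmp9. Tnfsf11 stood apart, at -0.03 with Nfatc1 and 0.01 with Mmp9 but 0.80 with Atp6v0d2. These values describe 9 libraries that share groups, depth, and mitochondrial share, and they carry no p-value.

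Among 5672 genes that averaged 5 FPKM or more, those most like Ctsk over the 9 libraries were Plekha5, Tbx2, Bmp1 (each r = 0.97), Rab14, and Smtn (each r = 0.96). Those most like Mmp9 were Hspa5 (r = 0.95), Mrps6, Mrc2 (each r = 0.94), Ptk7, and Gpc1 (each r = 0.93). Those most like Tnfrsf11b were Islr (r = 0.95), Gpr180 (r = 0.94), P4ha2, Vdr (each r = 0.93), and Akt1s1 (r = 0.90). No member was among them. Likeness here is the correlation alone.

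Of 28 other genes of resorption and acid secretion, 27 were tested, and 23 had a log2 fold change above 0 between SYD and control on the deposited scale. All SYD libraries lay above all control libraries for 19 and below for 2, where 20.3% and 22.2% of all genes did so, and the median log2 fold change was 0.59, beside 0.00 over all genes. By the unadjusted criteria 3 were called higher and 2 lower, beside 7.25% and 9.22% of all genes, and after adjustment 6 were higher and 1 lower at 0.05 in limma, beside 7.75% and 9.57% of all genes. Cst3, the secreted inhibitor cystatin C, was called higher (log2 fold change 1.51, SE 0.45), although with TPM it was -0.038, and Car2, the carbonic anhydrase that supplies protons, was called lower (-1.98, SE 0.62). Car2 is also a gene of red blood cells. Its levels were 138, 353, and 200 FPKM in control, 294, 20.3, and 192 FPKM in model, and 45.7, 27.1, and 121 FPKM in SYD. The pump subunits Atp6v0c and Atp6v0b had log2 fold changes of 0.46 and 0.59 and the collagenase Mmp14 of 0.86, and none of these was called.

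Between model and control 1 was called higher (Atp6v1e1, a pump subunit) and 1 lower (Itgb3, the integrin subunit of osteoclast attachment), beside 3.55% and 11.2% of all genes, with a median of -0.18 beside -0.23 over all genes. Itgb3 measured 31.9, 37.3, and 34.6 FPKM in control, 4.58, 9.96, and 7.85 FPKM in model, and 19.2, 17.1, and 9.63 FPKM in SYD. Its SYD libraries thus also lay below all control libraries. Between SYD and model 1 was called, higher (Tcirg1, the osteoclast subunit of the pump), beside 3.62% of all genes. In that comparison 23 of the 27 had a log2 fold change above 0, as did 61.9% of all genes, and the median was 0.69 beside 0.22. These 3 names were chosen after their values were seen, and their own fold changes under TPM and the other settings were not examined.

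Of 39 other receptors and signaling genes of osteoclast formation, 36 were tested. Between SYD and model 6 were called higher and 0 lower, beside 3.62% and 0.532% of all genes, among them Csf1r, the receptor for the growth factor M-CSF (log2 fold change 1.57, SE 0.58; not called with TPM, unadjusted p 0.0582, or with no filter, unadjusted p 0.0520). Csf1r measured 26.3, 18.1, and 27.1 FPKM in control, 7.85, 24.3, and 4.53 FPKM in model, and 36.8, 34.6, and 23.2 FPKM in SYD, so model library 2 again stood with the other groups. Between model and control 0 were called higher and 5 lower, beside 3.55% and 11.2% of all genes. Between SYD and control 6 were higher and 5 lower, beside 7.25% and 9.22%. Syk, a kinase downstream of immunoreceptors that B cells use as well, was lower than control in both the model (-1.78, SE 0.53) and the SYD group (-2.09, SE 0.14). Between SYD and control, Cd9, a membrane protein of fusion, was called higher (1.21, SE 0.44; -0.30 with TPM), while Tyrobp, an adaptor of immunoreceptors (0.30), Csf1r (0.38), and the kinase Mapk14 (-0.17) were not called. The medians of this list were -0.38, 0.25, and -0.05 in model against control, SYD against model, and SYD against control, all within 0.2 of those of all genes.

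Of 22 other transcription factors, 21 were tested. Between SYD and control 6 were called higher and 1 lower (Irf8, a brake on osteoclast formation, named after its value was seen), beside 7.25% and 9.22% of all genes. Irf8 measured 7.34, 8.19, and 7.48 FPKM in control, 4.45, 1.41, and 0.589 FPKM in model, and 2.17, 1.59, and 4.33 FPKM in SYD. Its model libraries lay below all control libraries as well. Id3, an inhibitor of basic helix-loop-helix factors, had a log2 fold change of 1.72 (SE 0.29), and Jdp2, a partner of AP-1, one of 1.59 (SE 0.32), although with TPM they were 0.20 and 0.14 and neither was called. Jdp2 was also called between model and control (1.14, SE 0.35; -1.85 with TPM). The myeloid factor Spi1 (-0.29) and the AP-1 member Jund (0.44) were not called between SYD and control. Between model and control 3 were called higher and 2 lower, beside 3.55% and 11.2%, and between SYD and model 1 higher (Fosl2, an AP-1 member, named after its value was seen), beside 3.62%. The list's medians were 0.48 in SYD against control, 0.11 in model against control, and 0.45 in SYD against model, beside 0.00, -0.23, and 0.22 over all genes.

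**Figure D4:**
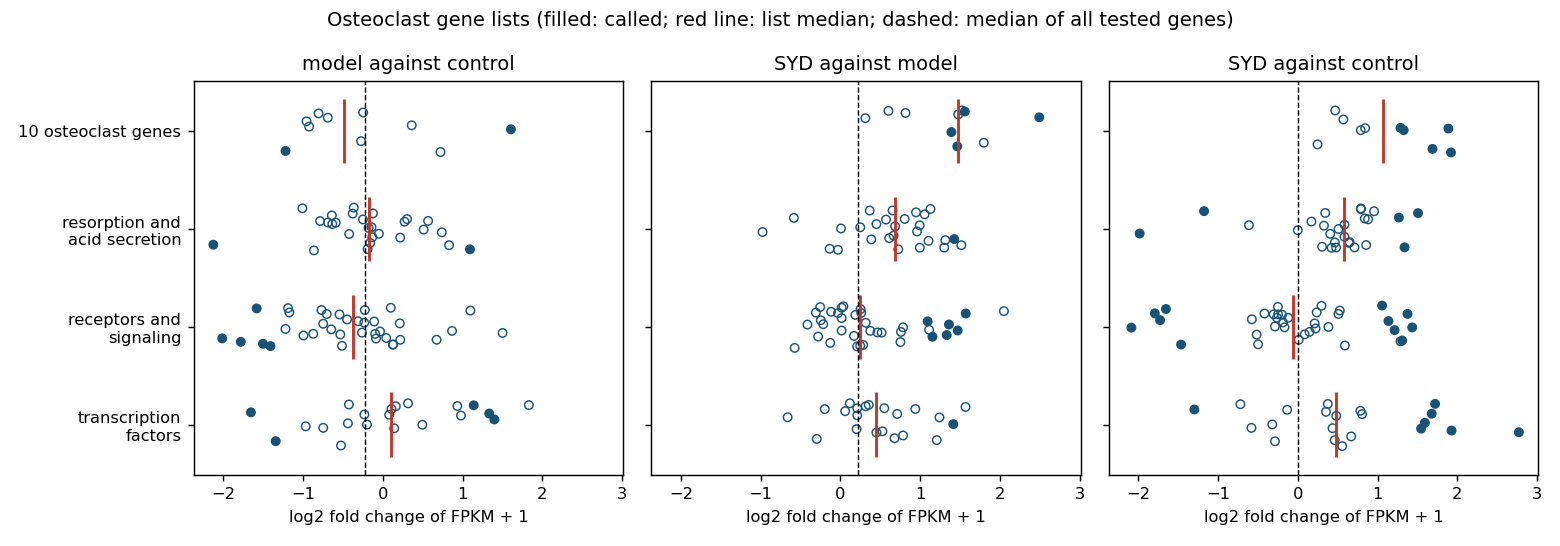
Log2 fold changes of FPKM + 1 for the 10 members and 3 lists of other osteoclast genes in each comparison; each point is a gene, filled where called, with the list median in red and the median of all tested genes dashed. The members' medians are -0.48, 1.47, and 1.07, although with TPM 7 of the 10 members fall below 0 in SYD against control while all 10 stay above the median of all genes.

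Markers of other cell types moved with the groups as well, and their part in the results above was not tested. The summed FPKM of 12 osteoblast and osteocyte markers ran from 4346 to 8816 in control, from 2129 to 12820 in model, and from 12978 to 16361 in SYD, with none of the 12 at 0 in any library. The 4 libraries with the highest sum over the 10 osteoclast genes (SYD 1, 2, and 3 and model 2) were also the 4 highest for the osteoblast sum. Mmp9 is a product of neutrophils too, and the sum of 12 neutrophil markers ran from 3087 to 5967 in control, from 77.6 to 8044 in model, and from 561 to 3492 in SYD. The alarmins S100a8 and S100a9 made up most of this sum. Of the 11 neutrophil markers tested, 0 had a log2 fold change above 0 between model and control, with a median of -2.59 (-0.23 over all genes) and 5 called lower (11.2% of all genes), in the direction of Mmp9. Between SYD and control also 0 of the 11 were above 0, with a median of -2.31 (0.00 over all genes) and 8 called lower (9.22% of all genes), where Mmp9 was at 0.25.

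The sum of 12 macrophage markers was 1083 to 1671 in control, 264 to 486 in model, and 313 to 646 in SYD, with Marco at 0 throughout. One gene, the lysozyme Lyz2, carried this difference, at 942 to 1553 FPKM in control, 177 to 264 in model, and 184 to 365 in SYD. Without it the other 11 summed to 118 to 153, 87.1 to 222, and 129 to 282, and the groups overlapped. B cell markers (10 genes) summed to 306 to 400 in control but to 18.8 to 62.3 in model and 16.8 to 48.0 in SYD, and 8 erythroid markers to 812 to 2114, 12.7 to 2009, and 74.6 to 716. The lowest erythroid sum was that of model library 2, the library in which Car2 was lowest. Endothelial markers (8 genes) summed to 36.5 to 49.0 in control, 27.1 to 259 in model, and 115 to 148 in SYD. The 14 chondrocyte markers summed to 457 to 11271, 159 to 929, and 115 to 1420. Skeletal muscle, synovial fibroblast, and T cell sums overlapped between all groups.

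**Figure D5:**
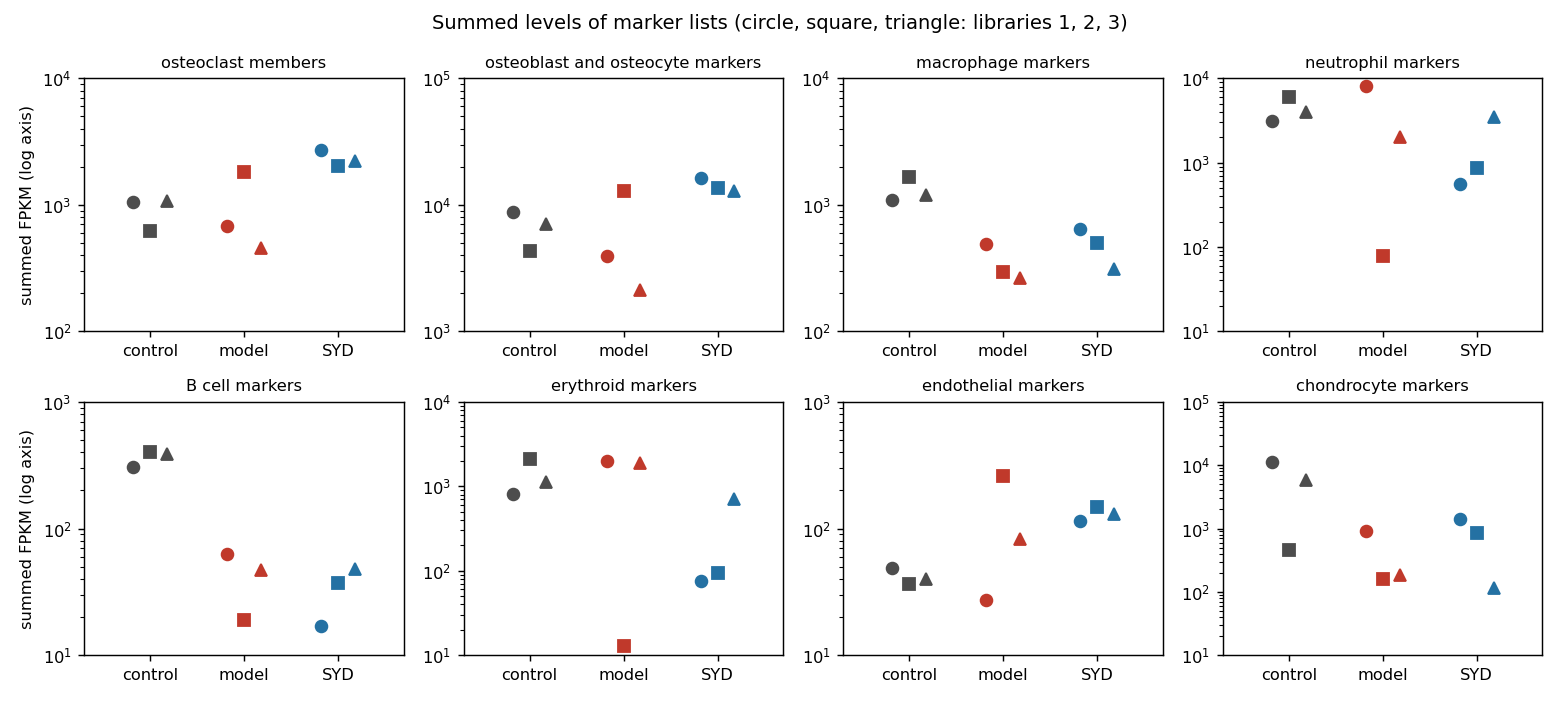
Summed FPKM (log axis) of the 10 osteoclast genes and of 7 lists of cell type markers in each library (circle, square, and triangle for libraries 1, 2, and 3). The osteoclast and osteoblast sums are high in the 3 SYD libraries and model library 2, and the B cell sums of the control group lie above those of the other groups, as do its macrophage sums, there through Lyz2.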

How the data were processed

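RNA sequencing of rat knee cartilage gave 9 libraries in 3 groups of 3, taken from the labels. The values, as deposited, are FPKM in a single table of all genes. The labels name HISAT2 2.0.5 and the build hg38, although the identifiers are those of rat, so positions are given as in the table. Their extraction text mentions retina, whereas the tissue label is cartilage. The counting tool and annotation are not given in the sources used here. Within a library, 100% of the FPKM values multiplied by length fell on whole steps (tolerance 0.1), which gave the reads, and 3 reads were the floor.

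In R 4.3.3, limma 3.58.1 (lmFit, eBayes with trend, two-sided) was fitted to log2(FPKM + 1) of the 6 libraries compared, over the 13898 genes averaging 0.5 FPKM or more in the 9 libraries, with Benjamini-Hochberg adjustment over all of them. All 10 members passed this filter. On this scale the change of low genes is understated. The fit was tested on simulated data. The members and lists were chosen with earlier results of these data known. Named besides the members were the 5 most abundant genes of each osteoclast list and the 5 most like Ctsk, Mmp9, and Tnfrsf11b, except 1 that is not reported here. Atp6v1e1, Itgb3, Tcirg1, Irf8, and Fosl2 were named outside this rule, after their values were seen, because few genes of their lists were called. Their own fold changes were not examined under the other settings.

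Also tried were pseudocounts of 0.1 and 0.01, no filter, a minimum mean of 1 FPKM, TPM with and without the 37 mitochondrial genes, median-of-ratios scaling, quantile normalization, all 9 libraries in one fit, robust eBayes, the replicate number as a block, voom on recovered reads, and leaving out each library. Leaving out libraries over 70% mitochondrial was chosen after seeing the data.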

Additional observations from a re-analysis of the deposited data

How the results depend on the processing

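With TPM the called members were 7 in model against control, all lower, as were 74.9% of all genes, and 0 in SYD against control, where 0.921% of all genes were called higher and 42.5% lower, in place of 2 and 5. TPM without mitochondrial genes gave 1 in model against control, lower, as were 13.9% of all genes. All 9 libraries in one fit gave 7 in SYD against model, in place of 4, and called 7.51% of all genes higher, in place of 3.62%. Leaving out each library gave 0 to 5, 1 to 7, and 3 to 7 called members in model against control, SYD against model, and SYD against control, while the share of all genes called higher ran from 1.92% to 7.14%, 2.07% to 13.8%, and 5.23% to 8.86% and the share called lower from 7.43% to 18.4%, 0.194% to 4.12%, and 7.63% to 9.86%. Leaving out libraries over 70% mitochondrial, chosen after seeing the data, gave 0 in SYD against model, where 2.63% of all genes were called higher and 1.32% lower, a fit of model library 2 alone against SYD libraries 1 and 2, in which the spread comes from the SYD libraries alone. Depth limits the model group most, where 2 libraries had 1744769 and 3611325 reads on non-mitochondrial genes. With 0.1 or 0.01 FPKM added before logarithms, Dcstamp lost its call in SYD against model. The cause of these changes was not tested beyond the settings' own construction.

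The replicate numbers did not pair the samples. The correlations of same-numbered deviations were -0.20, -0.27, and -0.08 in model against control, -0.07, 0.19, and 0.14 in SYD against model, and 0.07, -0.19, and -0.14 in SYD against control. With the replicate block the called members were 1 in model against control (Mmp9 lost its call), 4 in SYD against model, and 5 in SYD against control, all higher, with 2.71%, 3.25%, and 6.99% of all genes called higher, and no comparison kept a gene below 0.05 after adjustment (smallest adjusted p 0.0524, in SYD against control). Samples did not each correlate best with their own number.

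These log2 fold changes changed sign with TPM. In model against control they were -2.83 for Ctsk, -2.28 for Atp6v0d2, -0.78 for Tnfsf11, -2.68 for Cst3, -3.15 for Tyrobp, -2.97 for Cd9, -2.20 for Id3, -2.84 for Jund, and -1.85 for Jdp2. In SYD against model they were 0.67 for Car2 and 1.21 for Syk. In SYD against control they were -0.26 for Acp5, -1.30 for Mmp9, -0.15 for Atp6v0d2, -0.19 for Ocstamp, -0.96 for Nfatc1, -0.40 for Tnfrsf11a, -0.58 for Tnfrsf11b, -0.038 for Cst3, -1.08 for Atp6v0c, -0.95 for Atp6v0b, -0.66 for Mmp14, -1.25 for Tyrobp, -0.30 for Cd9, -1.13 for Csf1r, and -1.10 for Jund. Other scalings changed the sign in model against control for Tyrobp (-0.19) and Cd9 (-0.13) with TPM without mitochondrial genes, for Ctsk (-0.28) and Tyrobp (-0.31) with quantile normalization, and for Tyrobp (-0.16) with voom, and in SYD against model for Syk (0.074) with voom. Without the libraries over 70% mitochondrial, model library 2 alone stands for the model group. Against control it gave 0.88 for Acp5, 0.62 for Ocstamp, 1.14 for Dcstamp, 0.90 for Tnfrsf11a, and 0.022 for Tnfrsf11b, and SYD against it gave -0.12 for Atp6v0d2.

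Leaving out each library in turn, the ranges that crossed 0 in model against control were -0.29 to 0.90 for Ctsk, -0.85 to 0.10 for Acp5, -0.98 to 0.62 for Tnfrsf11b, -0.60 to 0.13 for Atp6v0c, -1.74 to 0.15 for Car2, -0.68 to 0.21 for Mmp14, -0.51 to 0.38 for Tyrobp, and -0.61 to 0.80 for Cd9. In SYD against model they were -0.15 to 0.98 for Atp6v0d2, -0.21 to 0.87 for Tnfsf11, -0.046 to 1.55 for Tnfrsf11b, -0.084 to 0.81 for Tyrobp, -0.0085 to 0.62 for Mapk14, -0.86 to 0.21 for Syk, and -0.062 to 1.34 for Spi1. In SYD against control they were -0.021 to 0.48 for Mmp9 and -0.039 to 1.02 for Tnfrsf11b.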
